A study of Daphnia magna with 56 samples.

Results

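The 100 transcript records described here were those whose level on day 4 of gamma irradiation was lowest at 0.4 to 10 mGy/h relative to both the unexposed animals and the animals at 100 mGy/h, out of 23570 records counted in Daphnia magna. They were selected on their own values. CPM (the count scaled to a common library total) was put on a log2 scale after adding 0.5. A record entered the choice if its mean over all 56 libraries was 5 to 1000 CPM, if the controls of the 2 days differed by less than 1 log2 unit, and if the rank correlation of its level with the dose rate was between -0.3 and 0.3 on each day. These limits were met by 3443 records. For each of them the depth of the dip, H, was the mean log2 level at 0.4, 1, 4 and 10 mGy/h minus the smaller of the means at 100 and 0 mGy/h, and the 100 records with the lowest H were taken. The day 4 levels, the day 8 trend, the day 8 and day 4 controls and the mean level are therefore description and support nothing. The day 8 libraries at 0.4 to 10 mGy/h played no part in H. On day 8 a like contrast was tested, 0.4 to 10 mGy/h against the mean of both ends in place of the smaller end.

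The animals were whole female wild-type juvenile Daphnia magna, a freshwater water flea, placed under gamma radiation as neonates and sampled after 8 or 4 days, at which ages they are labelled 8 and 4 days old. On each day 4 replicate libraries were made at 0, 0.4, 1, 4, 10, 40 and 100 mGy/h, and all groups, the unexposed ones included, were kept in the same M7 medium in static beakers. The labels do not say whether the replicates were separate cultures or how many animals went into each, so p-values measure only the spread between these libraries, which may be technical. In RNA from whole animals, fewer cells of a type and less RNA per cell cannot be told apart. The labelled tissue was not checked against marker genes, because the records carry no descriptions.

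Gamma radiation ionizes water and other molecules in the cell, which breaks DNA and yields reactive oxygen species. Animal cells answer such damage with DNA repair, cell-cycle checkpoints and antioxidant enzymes. A response is called non-monotonic when it changes direction along the dose axis, so that the middle of the range lies below or above both ends. Of the 100 records, 74 matched a gene symbol in the RefSeq table of assembly ASM2063170v1.1, all of them protein-coding genes with LOC numbers and no description, so no role can be given for any of them. Another record of the table shares the symbol in 3 of these 74. The version of a record was left out of the match, and only 1 of the 100 matched with it, so symbols and gene order may rest on other versions.

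Totals were 14032254 to 14986499 counts per library on day 8 and 13285376 to 14243541 on day 4. In the day 4 libraries the first principal component of 8805 records other than these 100 held 52.3% of the variance. It set some dose rate groups apart and split others. The 4 controls scored 23.2 to 33.4, and the 4 libraries at 0.4 mGy/h scored -50.6 to -24.5. Scores ran from -34.9 to 25.1 at 4 mGy/h, -28.5 to 12.8 at 10, -33.3 to 31.3 at 40 and -5.18 to 35.4 at 100 mGy/h. How far the dip shares this component was not tested. At 1 mGy/h, replicates 1 and 2 scored 33.5 and 34.0 on the component, and replicates 3 and 4 scored -35.3 and -32.2. The mean deviation of the 100 transcripts from their own day 4 means was -0.136, -0.0940, -0.0942 and -0.119 log2 units in those libraries, low in all 4. At 4 mGy/h the library that scored 25.1 had 0.0616, and the others had -0.0683, 0.0199 and -0.0343. At 40 mGy/h the library that scored -33.3 had -0.0424, and the others had 0.0486, 0.0148 and 0.0440. The lowest-scoring library had the lowest mean deviation at 10, 40 and 100 mGy/h, but not at 0, 0.4, 1 and 4 mGy/h.

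The dips were shallow. H ran from -0.59 to -0.08 log2 units with a median of -0.12, which puts the level at 0.4 to 10 mGy/h at 0.663 to 0.944 times the smaller end, with a median of 0.923. H was below -0.5 in 2 transcripts, below -0.25 in 4 and below -0.2 in 11, and it lay above -0.1 in 33. Among the 3443 records that met the limits the median H was 0.04, and 886 of them (25.7%) had an H below 0. In 41 of the 100 the dip was deeper than the SD of the transcript's own replicates within a group. The 100 records that peaked most at 0.4 to 10 mGy/h, chosen in the opposite way from the same 3443, stood 0.19 to 1.32 log2 units above the larger end, with a median of 0.29, and 15 of them exceeded 0.5. No record belonged to both sets. On day 4 no transcript of the 100, and none of all 9369 tested (0%), had its 16 libraries at 0.4 to 10 mGy/h all below its 8 libraries at 100 and 0 mGy/h.

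**Figure D1:**
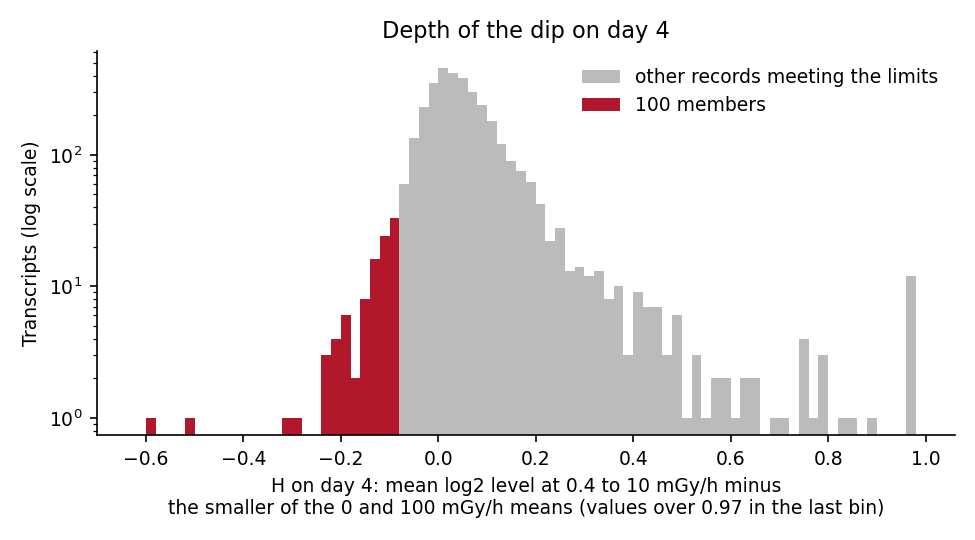
Depth of the day 4 dip, H, in log2 units on the x axis against the number of transcript records on a log axis, with the 100 selected records in red and the other records that met the limits in grey. The selected records form the lower tail, from -0.59 to -0.08, and most of the 3443 records lie above 0.

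The last 3 records inside the choice were XM_032936225.1, XM_032922829.1 and XM_032936355.1 (LOC116929202), with H of -0.0830, -0.0827 and -0.0824. The first 3 outside it were XM_032923091.1, XM_032922249.1 (LOC116916935) and XM_032921304.1 (LOC116916110), with H of -0.0821, -0.0820 and -0.0818. The members just inside and the records just outside thus differed in H by less than 0.01 log2 units. Membership was loose: 40 of the 100 were chosen again without the limits on the rank correlations, and 45 from the 20 day 4 libraries with the smaller totals, which leave out 10 mGy/h.

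The 100 transcripts leaned to low levels within the records that met the limits. The median of their mean level was 28.01 CPM (5.11 to 794 CPM), against 36.6 CPM in the 3443, and the lower quartile was 8.95 CPM, against 17.5 CPM. Their replicates spread more. The median SD within groups was 0.25 log2 units on day 8, against 0.17 in the 3443, and 0.14 on day 4, against 0.09. The level was lower in the day 8 controls than in the day 4 controls in 80 of the 100, against 82.6% of the 3443.

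The position of the low point varied between the transcripts. The lowest group mean on day 4 fell at 0.4 mGy/h in 27, at 1 mGy/h in 24, at 4 mGy/h in 10, at 10 mGy/h in 26 and at 40 mGy/h in 13. The highest fell at 0 mGy/h in 31, at 40 mGy/h in 14 and at 100 mGy/h in 46, with the other 9 at 0.4 to 4 mGy/h. In 74 transcripts each of the 4 low dose rates lay below both ends. The 40 mGy/h libraries entered the choice through the rank correlation but not through H. Their mean was above the 0.4 to 10 mGy/h mean in 78 of the 100 and between that mean and the smaller end in 51. The rule had chosen the 0.4 to 10 mGy/h mean to be low, so a high count is built in and nothing is read from it. The members' mean deviation from their own day 4 means was 0.10 ± 0.02 log2 units at 0 mGy/h, -0.06 ± 0.06 at 0.4, -0.11 ± 0.02 at 1, -0.01 ± 0.06 at 4, -0.07 ± 0.03 at 10, 0.02 ± 0.04 at 40 and 0.13 ± 0.04 at 100 mGy/h (SD, n = 4 libraries each).

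The 100 did not move as a single group. Once group means were subtracted, the median correlation between pairs of them was 0.21 on day 8 and 0.04 on day 4, against 0.17 and 0.06 among the 3443, which describes variation that libraries share and has no p. On day 4, 32 of the 4950 pairs correlated above 0.8, and these pairs joined 21 transcripts into 1 group of 13, 1 of 4 and 2 pairs. On day 8 the same 32 pairs correlated at 0.35 to 0.97, with a median of 0.77, and 29 of them were above 0.5. Pairs above 0.8 were not counted in other sets, so such groups are not shown to be particular to the 100. On day 4, 5.66% of all their pairs were above 0.5, against 3.24% among the 3443 and 30.3% among the 100 records that peaked most. On day 8 these shares were 19.1%, 20.4% and 35.2%. The group of 13 held both deepest dips, XM_032929315.1 and XM_032931746.1, together with XM_032923379.1, XM_032935256.1, XM_032922396.1 and the abundant XM_032935537.1. It was put together from these correlations, so its values are description.

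Within the 13, the spread between replicates was wide, and the mean of the 13 was lowest at 1 mGy/h. Their median SD within groups on day 4 was 0.35 log2 units, against 0.13 in the other 87. Their mean deviation at 1 mGy/h on day 4 was -0.49 ± 0.13 log2 units, against -0.05 ± 0.02 in the other 87 (SD, n = 4 libraries each). The mean of the 13 was low in every library at 1 mGy/h, from -0.59 to -0.31. At 4 mGy/h it ran from -0.57 to 0.56 and at 0 mGy/h from -0.20 to 0.39. Not every transcript of the 13 was lowest at 1 mGy/h. On day 4 XM_032941130.1 was at 0.923 times the controls at 1 mGy/h and 0.724 times at 4 mGy/h. XM_032934033.1 was at 0.879 and 0.835 times the controls there. The other 87 had a shallower and more even pattern. On day 4 their mean deviation was 0.09 to 0.17 log2 units in the 4 libraries at 100 mGy/h and 0.08 to 0.11 in the 4 controls, and no library at 0.4 to 40 mGy/h exceeded 0.01. The rule had put the mean over 0.4 to 10 mGy/h below both ends.

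**Figure D2:**
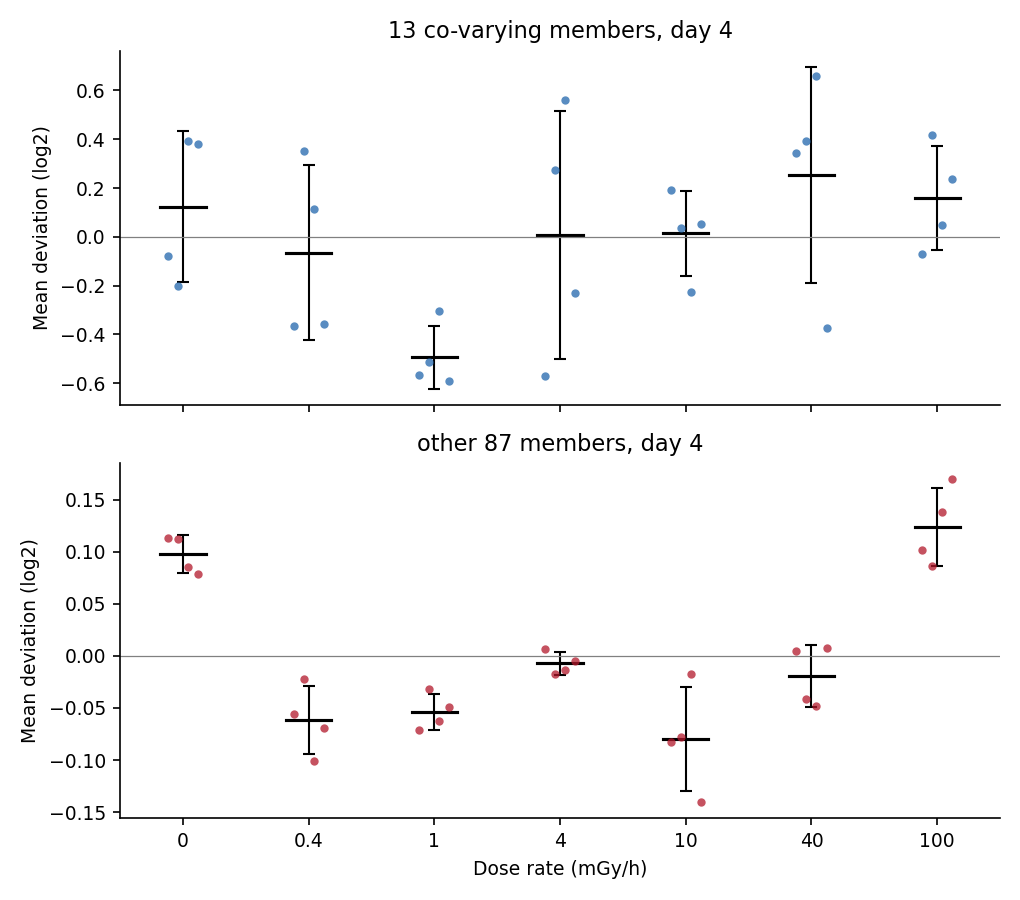
Mean deviation from each transcript's own day 4 mean, in log2 units, by dose rate, for the 13 co-varying transcripts (top) and the other 87 (bottom), on separate y scales. Points are libraries, and bars are the mean and SD of 4; the 13 are low in all 4 libraries at 1 mGy/h and spread widely elsewhere, and the 87 sit at or below 0.01 from 0.4 to 40 mGy/h and above 0.07 at both ends.

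XM_032929315.1 (LOC116922858) had the deepest dip. Its day 4 levels were 29.4, 28.3, 50.5 and 49.5 CPM at 0 mGy/h, 21.4, 54.8, 33.2 and 24.1 at 0.4 mGy/h, 11.8, 11.6, 25.9 and 4.33 at 1 mGy/h, 19.9, 51.3, 60.9 and 19.5 at 4 mGy/h, 38.9, 27.3, 30.4 and 38.7 at 10 mGy/h, 44.9, 52.9, 68.2 and 11.8 at 40 mGy/h, and 36.4, 59.0, 23.9 and 49.1 at 100 mGy/h. Replicates at 0.4, 4 and 40 mGy/h reached above the highest control or fell below the lowest, so the groups overlap, and only the 1 mGy/h group lay below all 4 controls. Its H was -0.59 log2 units, and its SD within groups was 0.75 log2 units, the largest of the 100.

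On day 8, XM_032929315.1 had the most negative estimate of all 100, a difference of -0.69 log2 units between 0.4 to 10 mGy/h and the ends. Its levels were 9.69 to 30.05 CPM at 0.4 mGy/h and 6.51 to 54.8 CPM at 1 mGy/h, against 14.3 to 59.4 CPM in the controls. The 95% interval of the difference ran from -1.48 to 0.09, and the adjusted p was 0.389 (edgeR quasi-likelihood test, Benjamini-Hochberg adjustment). At 100 mGy/h replicate 4 stood at 104.7 CPM, with the other 3 at 26.1 to 37.6 CPM.

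XM_032931746.1 (LOC116925121) belongs to the same 13 and was high and low in many of the same day 4 libraries. It had 87.1, 91.6, 164 and 170.1 CPM at 0 mGy/h, 59.1, 168, 120.2 and 69.4 at 0.4 mGy/h, 33.8, 32.1, 67.4 and 57.7 at 1 mGy/h, 50.2, 161, 213 and 97.9 at 4 mGy/h, 140.0, 88.2, 109 and 112 at 10 mGy/h, 171, 173, 231 and 51.9 at 40 mGy/h, and 118, 179, 121 and 132 at 100 mGy/h. Again the 1 mGy/h libraries all lay below the controls, and the 4 and 40 mGy/h libraries ran from below the lowest control to above the highest. Its H was -0.50. On day 8 the difference was 0.04 log2 units with an interval from -1.06 to 1.13. Its lowest day 8 libraries, from 10, 1, 4 and 0 mGy/h, had 3.48, 7.61, 12.96 and 18.0 CPM.

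**Figure D3:**
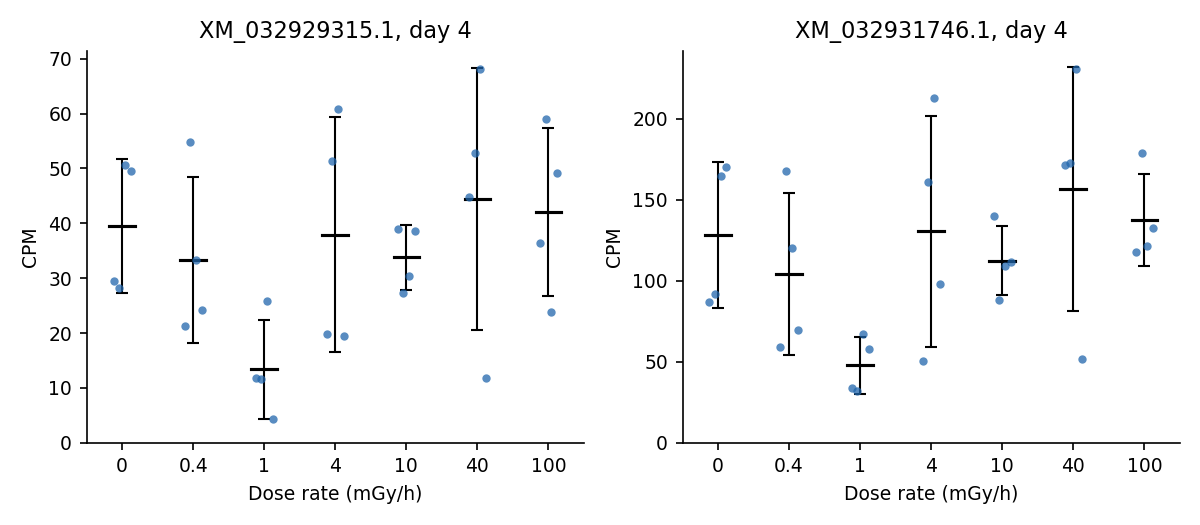
Day 4 levels in CPM by dose rate of XM_032929315.1 (left) and XM_032931746.1 (right); points are libraries, bars are the mean and SD of 4 at each dose rate. In both transcripts the 4 libraries at 1 mGy/h lie below the 4 controls, and the groups at 4 and 40 mGy/h cover most of the range.

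XM_032923379.1, with no symbol, and XM_032935256.1 (LOC116928152) belong to the same 13. XM_032923379.1 averaged 18.7 ± 7.13 CPM at 0.4 to 10 mGy/h on day 4 (SD, n = 16) and 24.5 ± 8.12 CPM at 100 and 0 mGy/h (n = 8), and its 1 mGy/h libraries had 11.8 ± 2.71 CPM (n = 4). XM_032935256.1 averaged 28.5 ± 7.62 CPM against 33.9 ± 8.22 CPM over the same libraries. XM_032922396.1 (LOC116917041) averaged 10.2 ± 4.50 CPM against 12.6 ± 3.66 CPM. Each of these differences in means was smaller than the SD of either side.

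A tighter pattern was seen in transcripts outside the 13. XM_032935283.1, with no symbol, averaged 143 ± 7.78 CPM at 0.4 to 10 mGy/h on day 4 (SD, n = 16) and 171 ± 13.5 CPM at 100 and 0 mGy/h (n = 8). Its low dose rate libraries ran from 128 to 156 CPM and its end libraries from 155 to 197 CPM, so only the edges of the 2 ranges met. Its 40 mGy/h libraries, at 139 to 157 CPM, lay with the low dose rates. On day 8 the ranges overlapped throughout, at 55.4 to 128 CPM for 0.4 to 10 mGy/h and 69.2 to 132 CPM for the ends, and the difference was -0.18 log2 units with an interval from -0.43 to 0.08.

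XM_032930690.1, with no symbol, had 168 ± 12.5 CPM at 0.4 to 10 mGy/h on day 4 and 216 ± 25.9 CPM at 100 and 0 mGy/h. The higher end was 100 mGy/h, at 237 ± 9.72 CPM, against 194 ± 15.5 CPM in the controls (n = 4 each). On day 8 the order was the other way, with 314 ± 44.5 CPM at 0.4 to 10 mGy/h and 292 ± 32.7 CPM at the ends. The day 8 difference of 0.13 log2 units had an interval from -0.04 to 0.30.

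Of the other transcripts among the 12 deepest, XM_032939434.1 averaged 6.27 ± 0.88 CPM at 0.4 to 10 mGy/h and 7.95 ± 0.85 CPM at the ends. XM_032924006.1 (LOC116918329) averaged 6.55 ± 1.06 CPM against 8.00 ± 1.56 CPM, XM_032931176.1 (LOC116924644) 7.55 ± 0.77 CPM against 9.12 ± 0.88 CPM, and XM_032930032.1 4.44 ± 0.67 CPM against 5.33 ± 0.78 CPM (SD, n = 16 and n = 8). In these 4 transcripts of low level the 2 ranges overlapped in day 4 libraries. Their day 8 differences lay between -0.16 and -0.02 log2 units, with intervals that all included 0.

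XM_032942595.1 (LOC116935247) and XM_032942586.1 (LOC116935238) come from genes next to each other in the assembly's gene order. They correlated at 0.94 on day 8 and 0.93 on day 4 after group means were subtracted. How reads shared between records were counted is not given in the sources used here. XM_032942595.1 had 31.4, 35.1, 27.4 and 19.2 CPM at 0 mGy/h on day 4, and XM_032942586.1 had 86.1, 95.1, 75.3 and 56.4 CPM in the same libraries. Both were lowest at 40 mGy/h and not at a low dose rate, like the other 11 of the 13 transcripts counted above with that low point. At 40 mGy/h XM_032942595.1 had 16.5 ± 2.38 CPM and XM_032942586.1 had 51.7 ± 5.69 CPM, against 28.3 ± 6.84 and 78.2 ± 16.7 CPM in the controls (SD, n = 4). On day 8 XM_032942586.1 had the most positive difference of the 100, at 0.35 log2 units, with an interval from -0.19 to 0.90.

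Of the 74 transcripts placed in the gene order of 16891 protein-coding genes, 3 pairs lay within 5 genes of each other. Such pairs were not counted in other sets of genes, so nothing is read from their number. LOC116929021 and LOC116929023 are also adjacent, and their transcripts XM_032936178.1 and XM_032936179.1 correlated at 0.78 on day 8 and 0.48 on day 4. LOC116916975 and LOC116917773 lie 2 genes apart, and their transcripts XM_032922294.1 and XM_032923373.1 correlated at 0.01 on day 8 and -0.33 on day 4.

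The most abundant of the 100 was XM_032929578.1 (LOC116923040), which joined XM_032930498.1, XM_032933014.1 and XM_032937689.1 in the co-varying group of 4. It averaged 1097 ± 225 CPM at 0.4 to 10 mGy/h on day 4 and 1225 ± 139.8 CPM at the ends. Its 1 mGy/h mean of 1289 ± 205 CPM was the highest of the 7 groups. On day 8 its libraries ran from 11.7 to 896 CPM at 0.4 to 10 mGy/h and from 125 to 810 CPM at the ends. XM_032935537.1 (LOC116928453) averaged 573 ± 129 CPM at 0.4 to 10 mGy/h and 624 ± 82.4 CPM at the ends on day 4, with 461 ± 39.3 CPM at 1 mGy/h. XM_032923517.1 had 596 ± 36.5 CPM at 0.4 to 10 mGy/h and 645 ± 29.1 CPM at the ends.

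On day 8 the dip contrast gave no call among the 100. All 100 passed the filter on low counts, and edgeR's quasi-likelihood test with Benjamini-Hochberg adjustment called 0 of them at an adjusted p under 0.05, while over all 9367 transcripts tested it called 13 as lower (0.139%) and 18 as higher (0.192%) at 0.4 to 10 mGy/h. An unadjusted p under 0.05 was found in 5 of the 100, against 1417 of the 9367 (15.1%). DESeq2 called 1 of the 100, against 163 of the 9367 (1.74%). The median difference of the 100 was -0.03 log2 units, with 58 of 100 below 0, against a median of 0.00 and 49.2% below 0 over all 9367. The 9367 include records outside the limits of the rule, such as those with a day 8 trend, so these comparisons are between unlike sets. Single differences ran from -0.69 to 0.35, with a median SE of 0.10. On day 4, where the rule had used the same levels through H, the median difference was -0.16 and every one was below 0. H was taken against the smaller end, and this contrast is taken against the mean of both ends.

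The 95% intervals show how much the day 8 libraries could tell. The interval lay below 0 in 4 transcripts, above 0 in 1 and included 0 in 95. The day 4 differences come from the levels that chose the transcripts and are extreme by that choice, so nothing is read from the intervals against them. The spread was larger on day 8. The median biological coefficient of variation of the 100 was 0.160 on day 8 and 0.0932 on day 4, against 0.142 and 0.0799 over all tested transcripts.

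**Figure D4:**
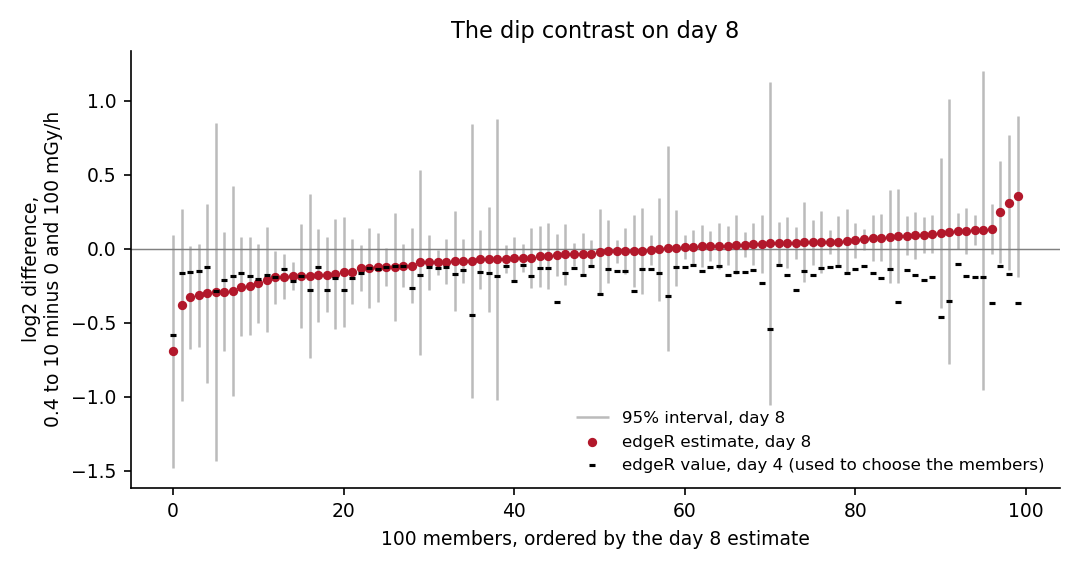
Day 8 difference between 0.4 to 10 mGy/h and the mean of the 0 and 100 mGy/h ends, in log2 units, for the 100 transcripts ordered by that value. Red points are edgeR estimates and grey lines their 95% intervals. Black dashes are the edgeR day 4 values of the same contrast, which come from levels that the rule used but are not H itself. The estimates run from -0.69 to 0.35 across 0, and 95 of the 100 intervals include 0.

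The shape on day 8 is given beside that of all 3443 records that met the limits, the 100 included, and the differences were not tested. The 0.4 to 10 mGy/h mean was below both ends in 40 of the 100, against 39.0% of the 3443. All 4 low dose rate means were below both ends in 11 of the 100, against 10.4%. The lowest day 8 mean fell at 1 mGy/h in 44 of the 100, against 44.6%, at 0.4 mGy/h in 17, against 11.6%, and at 40 mGy/h in 12, against 19.2%. The 40 mGy/h mean was above the 0.4 to 10 mGy/h mean in 54 of the 100, against 43.9%. The 13 co-varying transcripts had a median day 8 difference of -0.08 log2 units, with 9 of 13 below 0, and the other 87 had -0.02, with 49 below 0. At 1 mGy/h on day 8 the mean deviation of the 13 was -1.61, -0.04, 0.38 and -0.09 log2 units in replicates 1 to 4. Those libraries were thus not all low, as they had been on day 4.

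The largest unadjusted evidence on day 8 came from XM_032938532.1, XM_032921330.1 (LOC116916131) and XM_032929033.1 (LOC116922671). XM_032921330.1 averaged 7.96 ± 1.13 CPM at 0.4 to 10 mGy/h and 9.23 ± 0.65 CPM at the ends on day 8 (SD, n = 16 and n = 8), a difference of -0.19 log2 units with an adjusted p of 0.226 in edgeR. XM_032929033.1 went the other way, with 28.1 ± 1.46 CPM against 26.3 ± 1.63 CPM, a difference of 0.12 and an adjusted p of 0.244 in edgeR. Its day 4 levels had been 39.2 ± 1.55 CPM at 0.4 to 10 mGy/h and 44.3 ± 2.37 CPM at the ends. XM_032939608.1 (LOC116931928) and XM_032935894.1 (LOC116928786) followed XM_032942586.1 among the most positive day 8 differences, at 0.31 and 0.25 log2 units, with adjusted p of 0.517 and 0.489 in edgeR. The symbol of XM_032935894.1 is shared with another record, so its counts are uncertain.

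XM_032938532.1, which has no symbol, was low at 1 mGy/h on both days. On day 8 it had 154, 168, 177 and 171 CPM at 0 mGy/h, 144, 150.1, 189 and 145 at 0.4 mGy/h, 103, 102, 114 and 105 at 1 mGy/h, 159, 159, 141 and 149 at 4 mGy/h, 166, 152, 153 and 158 at 10 mGy/h, 161, 158, 139 and 144 at 40 mGy/h, and 175, 152, 162 and 152 at 100 mGy/h. The 4 libraries at 1 mGy/h lay below the other 24, with a gap between 114 and 139 CPM. On day 4 it had 225, 222, 231 and 231 CPM at 0 mGy/h, 213, 211, 210.2 and 203 at 0.4 mGy/h, 160.7, 160.3, 163 and 163 at 1 mGy/h, 204, 198, 199 and 194 at 4 mGy/h, 212, 224, 204 and 201 at 10 mGy/h, 219, 212, 207 and 211 at 40 mGy/h, and 218, 210.0, 224 and 229 at 100 mGy/h. There too all 4 libraries at 1 mGy/h lay below the other 24, and the gap to the nearest of them was from 163 to 194 CPM. The other low dose rates, 0.4, 4 and 10 mGy/h, averaged 209 ± 4.45, 199 ± 4.17 and 210.3 ± 10.3 CPM, and 40 mGy/h averaged 212 ± 5.23 CPM (SD, n = 4 each).

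The contrast over 0.4 to 10 mGy/h put XM_032938532.1 at -0.19 ± 0.05 log2 units on day 8 (SE), with an interval from -0.28 to -0.09 and an adjusted p of 0.0739 in edgeR, the smallest of the 100. The test of any difference among the 7 day 8 groups called it, with an adjusted p of 0.00332 in edgeR, as the only 1 of the 100, against 135 of 9367 transcripts (1.44%). In that test 5 of the 100 had an unadjusted p under 0.05, against 1294 of the 9367 (13.8%). The rule had removed records with a day 8 trend before this test. At 1 mGy/h alone, a comparison chosen after its values were seen, day 8 levels were 0.688 times the controls, a difference of -0.54 ± 0.08 log2 units (SE) with an adjusted p of 0.000544 in edgeR. That comparison called 1 of the 100 and 24 of all 9367, of which 4 were lower (0.0427%). An unadjusted p under 0.05 was found there in 7 of the 100, against 889 of the 9367 (9.49%). On day 4 the level at 1 mGy/h was 0.708 times the controls, which the rule had used. The SD within groups of XM_032938532.1 was 0.10 log2 units on day 8 and 0.04 on day 4.

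XM_032936355.1 (LOC116929202), the last record inside the choice, had a like pattern on day 4. Its 4 libraries at 1 mGy/h had 119, 115, 118 and 119 CPM, and the other 24 ran from 135 to 148 CPM. On day 8 it had 119.9, 99.4, 116 and 110.2 CPM at 1 mGy/h, against 137, 155, 137 and 151 CPM in the controls. The 1 mGy/h libraries were below all 4 controls on day 8 but not below every other library, since 1 at 40 mGy/h had 119 CPM. How many of all transcripts had 1 mGy/h below all 4 controls was not counted. Among the 3443 records the lowest day 8 mean fell at 1 mGy/h in 44.6% and the highest at 0 mGy/h in 38.0%. The day 8 difference at 1 mGy/h was -0.26 log2 units with an adjusted p of 0.469 in edgeR, and the contrast over 0.4 to 10 mGy/h was 0.01 with an interval from -0.10 to 0.12.

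**Figure D5:**
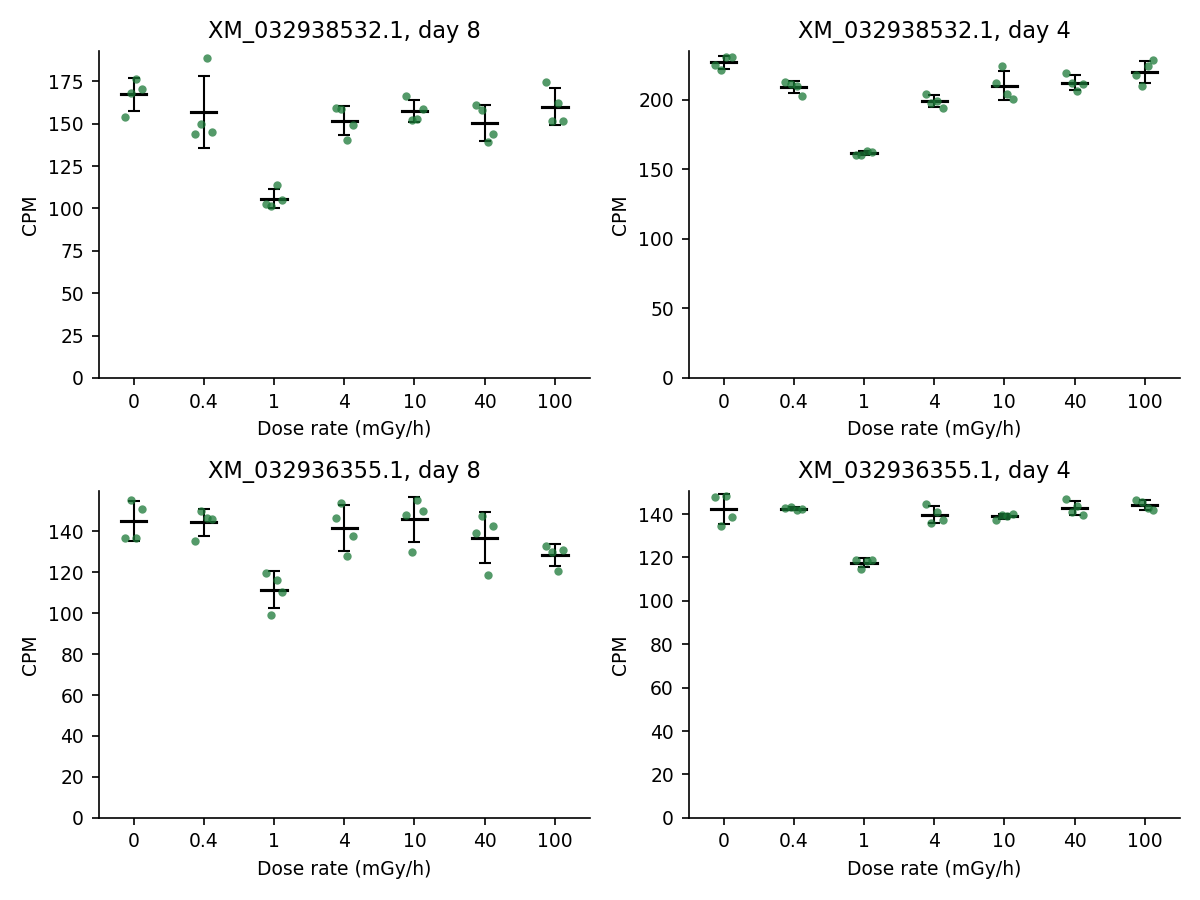
Levels in CPM by dose rate of XM_032938532.1 (top) and XM_032936355.1 (bottom), day 8 on the left and day 4 on the right; points are libraries, bars the mean and SD of 4, and the y axes start at 0. The libraries at 1 mGy/h are below all others on both days in XM_032938532.1, and on day 4 in XM_032936355.1.

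All 4 libraries at 1 mGy/h lay below the other 24 in 4 of 9367 tested transcripts on day 8 (0.0427%), 1 of them among the 100, and in 6 of 9369 on day 4 (0.064%), 2 of them among the 100. XM_032938532.1 was the only transcript of the 9202 tested on both days with that order on both. At 10 mGy/h, 1 transcript of 9369 had all 4 libraries below the other 24 on day 4, and it was XM_032923273.1 (LOC116917692), with 63.9, 64.2, 65.7 and 64.9 CPM against 65.9 to 78.4 CPM. On day 8 its 10 mGy/h libraries had 62.7 to 72.0 CPM, among the others. The rule chose the 100 for low day 4 levels at the low dose rates, 1 and 10 mGy/h among them. A high share of the 100 in the day 4 counts at 1 and 10 mGy/h is thus built in, and nothing is read from it. At 100 mGy/h all 4 libraries lay below the other 24 in 34 of 9367 transcripts on day 8 and 12 of 9369 on day 4. None of the 100 had that order. The rule excluded it on day 4, since it put the low dose rate mean below the mean at 100 mGy/h. The limit on the day 8 rank correlation worked against it on day 8, so nothing is read from its absence.

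The spread between replicates differed widely among the 100. After XM_032936355.1 and XM_032938532.1, XM_032929271.1 (LOC116922822) had the next smallest SD within groups on day 4, at 0.05 log2 units, with 108 ± 4.19 CPM at 0.4 to 10 mGy/h and 116 ± 3.57 CPM at the ends (SD, n = 16 and n = 8). XM_032930410.1 (LOC116923847) had an SD of 0.73 log2 units, the largest after XM_032929315.1, with 4.51 ± 2.69 CPM at 0.4 to 10 mGy/h and 5.04 ± 1.52 CPM at the ends. The difference in means of XM_032930410.1 was smaller than the spread of either side. Of the records at the edge of the choice, XM_032936225.1 averaged 7.46 ± 0.80 CPM against 8.26 ± 0.93 CPM and XM_032922829.1 averaged 23.7 ± 1.53 CPM against 25.3 ± 1.62 CPM, so that the differences in means were of the size of the spread.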

How the data were processed

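The authors deposited a table of raw counts for each day, whole numbers per RefSeq transcript record that were not normalized. Per the labels' protocols, mRNA was sequenced on the BGISEQ-500 platform with paired-end reads 100 bp long. HISAT is named without a version in the submitters' processing notes. The counting program, genome build and annotation are not given in the sources used here. Groups follow the dose rate and day in the labels.

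CPM was computed from the deposited counts and the column totals. Tests used edgeR 4.0.16 in R 4.3.3, with filterByExpr, TMM factors and a quasi-likelihood fit of all 28 libraries of a day, 2-sided, adjusted over all transcripts tested. DESeq2 1.42.0 was an alternative, as were RLE factors, library totals only, no filter, a replicate block, the 40 mGy/h group left out and each library left out. Intervals are 95% intervals from the fit. The contrast was tested on simulated data.

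The members, lists and comparisons were chosen with earlier results of these data known. Named transcripts were the 12 with the lowest H, the 3 most abundant, the 3 with the smallest day 8 p, the 3 with the most and the 3 with the least spread, the 3 on each side of the threshold and the 3 with the most positive day 8 difference. Others, XM_032923273.1, gene neighbours and co-varying members, were named after their values were seen. Sequence features planned for the members were not analysed here.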

Additional observations from a re-analysis of the deposited data

Results flagged for a closer look

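Single libraries far from the other 3 of their group were looked for in the mean deviation of the 100 and in the levels of 6 transcripts, the 4 with the lowest H, XM_032938532.1 and XM_032936355.1. Of 98 groups of 4 libraries, 6 held a library whose gap to its nearest neighbour, as a share of the group's range, was above Dixon's 95% critical value, and chance gives about 1 in 20, or 4.9. In day 8 replicate 4 at 100 mGy/h, XM_032929315.1 stood at 104.7 CPM, XM_032931746.1 at 242 CPM and XM_032923379.1 at 43.4 CPM, each above the other 3 libraries. All 3 transcripts belong to the 13 that co-vary, so these are not separate observations. XM_032923379.1 also stood at 23.7 CPM in day 8 replicate 2 at 40 mGy/h, above the other 3. XM_032936355.1 stood at 115 CPM in day 4 replicate 2 at 1 mGy/h, below the other 3, which had 118 to 119 CPM. XM_032938532.1 stood at 189 CPM in day 8 replicate 3 at 0.4 mGy/h, above the other 3, which had 144 to 150.1 CPM. Without that library its adjusted p in the day 8 dip contrast was 0.0317 in edgeR, against 0.0739 with it, and the adjusted p ran from 0.00853 to 0.183 over 34 alternatives.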

How the results depend on the processing

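Membership depended on the choice of libraries and limits. Of the 100 transcripts, 91 were chosen again with log2(CPM + 2), 76 with TMM-scaled library sizes, 80 against the mean of both ends, 40 without the limits on the rank correlations, and 72 to 97 with 1 day 4 library left out. With the 20 smaller day 4 libraries only, a setting chosen after seeing the data that leaves out 10 mGy/h, 45 were chosen again and 99 of the 100 kept an H below 0. The median H ran from -0.119 to -0.105 with 1 library left out, and was -0.107, -0.128 and -0.1005 under log2(CPM + 2), TMM scaling and the 20 smaller libraries.

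In the day 8 dip contrast DESeq2 called 1 of the 100 and 163 of all 9367 (edgeR 31), and leaving out 1 library gave 0 to 1 of the 100 and 2 to 65 of all; the 1 was XM_032938532.1, called without replicate 3 at 0.4 mGy/h (adjusted p 0.0317), without replicate 2 at 40 mGy/h (0.0457) and by DESeq2 (0.00853). The median day 8 difference ran from -0.046 to -0.0151 with 1 library left out. It was -0.0559 with library totals only, where the median of all transcripts was -0.0251. With library totals only, the test of any difference called 2 of the 100 and 127 of 9367 (1.36%), and the comparison of 1 with 0 mGy/h called 2 and 19 (0.203%). Each called 1 under the other settings that gave a value, 1 to 1 with a library left out (52 to 240 and 9 to 27 of all); with DESeq2 these were 677 and 51 of all 9367. The cause was not tested.

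No named transcript whose difference changed sign was called. XM_032931746.1 stood at -0.00652 with library totals only and at -0.00644 with the replicate block, and XM_032936355.1 at -0.0157 with library totals only. With 1 library left out, the ranges that crossed 0 were -0.135 to 0.382 in XM_032931746.1, -0.230 to 0.220 in XM_032923379.1, -0.0153 to 0.201 in XM_032942595.1, -0.0899 to 0.0137 in XM_032939434.1, -0.0513 to 0.478 in XM_032922396.1, -0.1002 to 0.101 in XM_032924006.1, -0.0658 to 0.0372 in XM_032931176.1, -0.190 to 0.179 in XM_032929578.1, -0.0320 to 0.157 in XM_032935537.1, -0.0344 to 0.425 in XM_032930410.1 and -0.0230 to 0.0407 in XM_032936355.1.

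With the replicate number as a block, the dip contrast called 0 of the 100 and 31 of 9367, the test of any difference 1 and 122, and the comparison of 1 with 0 mGy/h 1 and 20, and the median difference was -0.0230. The numbers gave no clear pairing of the day 8 libraries, which was not tested, and the day 4 libraries were not checked. Same-numbered day 8 libraries correlated at a median of 0.0283 (-0.472 to 0.5998, 84 pairs), against -0.00548 for other pairs, and 10 of 28 libraries correlated best with their own number.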
